A study of Rattus norvegicus with 4 samples.

Results

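The miR-181 family is a set of small regulatory RNAs cut from 6 hairpin genes of the rat genome. Its members were taken by name, as every product numbered rno-miR-181 with any letter or arm suffix, after counts of the same name had been added. This gave 10 products among the 740 miRNA names of the series. They are the 4 guides from the 5' side of the hairpins, rno-miR-181a-5p, rno-miR-181b-5p, rno-miR-181c-5p and rno-miR-181d-5p, and 6 products of the opposite 3' side.

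A miRNA hairpin yields a short duplex, and one strand of it, the guide, is usually kept by an Argonaute protein while the other, the passenger, is usually degraded. The guide pairs through its seed, a short stretch near its 5' end, with sites in messenger RNAs and lowers their translation and stability. The miR-181 family is known for tuning antigen receptor signalling and differentiation of lymphocytes, and miR-181a and miR-181b have also been studied in chondrocyte differentiation and in degenerating joints.

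Small RNA was sequenced from chondrocytes of the costochondral cartilage of male Sprague Dawley rats and from the matrix vesicles (MVs) these cells deposit, which are small membrane-bound particles of the matrix. Resting zone cells (RC) come from the reserve cartilage, and growth zone cells (GC) from the prehypertrophic and upper hypertrophic layers of the growth plate. All cultures were grown to passage 4 without a treatment, in medium with fetal bovine serum that had been centrifuged to clear it of exosomes. The vesicles were released from the matrix with trypsin, which was stopped with exosome-cleared serum, and were pelleted in steps of rising centrifugal force. The 4 libraries, 1 for each group, are called RC-cells and RC-MVs for the resting zone and GC-cells and GC-MVs for the growth zone, and the labels do not say how many animals or cultures stand behind each of them.

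The miRNA reads numbered 6517329 in RC-cells and 7414467 in GC-cells, and 1108821 and 982543 in the respective MVs, so MV values rest on fewer reads. A level is the percent of all miRNA reads of its library. Brackets after a level, a share or a single ratio hold the exact Clopper-Pearson interval at the 95% level. Where a ratio within a library is compared between libraries, they hold the conditional interval of the odds ratio at the same level. Both kinds cover counting error only. PCR copies are not independent molecules, so the true error is wider. Each group has 1 library, so no difference between a pair of groups has a replicate check, and no p-value is given. A percent is a share, so a higher share of one miRNA and less of all the others cannot be told apart, nor can more cells of a type and more RNA per cell. A count of 0 allows up to 3 reads, which is 4.60e-05% in RC-cells and 0.000271% in their MVs, and 4.05e-05% in GC-cells and 0.000305% in their MVs.

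The 4 guides are shown because they share a seed and differ in few other bases, which bears on how well reads can be told apart. Capitals mark the seed, bases 2 to 8, and the sequences and positions are those of RefSeq on the build GRCr8, all on the plus strand. miR-181a-5p is encoded at chr13:52037081-52037103 and at chr3:43025601-43025623, miR-181b-5p at chr13:52037263-52037285, miR-181c-5p at chr19:40888314-40888335 and miR-181d-5p at chr19:40888484-40888506. The other locus counted for miR-181b-5p, Mir181b2, had no mature entry among the sequences used, so its position is not given.
miR-181a-5p: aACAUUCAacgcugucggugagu
miR-181b-5p: aACAUUCAuugcugucggugggu
miR-181c-5p: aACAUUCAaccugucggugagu
miR-181d-5p: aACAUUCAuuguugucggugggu

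Counted from the 5' end, miR-181b-5p differs from miR-181a-5p at 3 of 23 positions, A9U, C10U and A21G. The change from miR-181b-5p to miR-181d-5p is the single base C12U. Leaving out position 11 of miR-181a-5p gives miR-181c-5p exactly. Of the 660 names in the count table that had a RefSeq mature sequence, these 4 were the names with the seed ACAUUCA. A read that has lost its distinguishing bases, or carries an error at one of them, could be counted for another member, so the split among these guides is less certain than their sum.

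The 3' products carry information that miR-181a-5p and miR-181b-5p lack, since each names its own hairpin. They are shown with their seeds in capitals. miR-181a-1-3p lies at chr13:52037121-52037142, miR-181a-2-3p at chr3:43025646-43025664, miR-181b-1-3p at chr13:52037303-52037323, miR-181c-3p at chr19:40888353-40888374 and miR-181d-3p at chr19:40888526-40888545.
miR-181a-1-3p: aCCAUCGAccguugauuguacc
miR-181a-2-3p: aCCACCAAccguugacugu
miR-181b-1-3p: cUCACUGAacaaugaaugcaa
miR-181c-3p: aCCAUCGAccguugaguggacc
miR-181d-3p: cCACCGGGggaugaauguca

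miR-181a-1-3p and miR-181c-3p share the seed CCAUCGA and differ at 2 of 22 positions, U16G and U19G. The caution on telling reads of the guides apart holds for this pair too, and the 3' share of Mir181c rests on miR-181c-3p. RefSeq matched 9 of the 10 products, and miR-181b-2-3p is given by name. The hairpins stand in 3 pairs. Mir181a-1 and Mir181b1 on chromosome 13 lie within the span of the long noncoding RNA gene LOC108352541. Mir181a2 and Mir181b2 on chromosome 3 lie within the spans of Nr6a1, which encodes an orphan nuclear receptor, and of the long noncoding RNA gene LOC120101539. Mir181c and Mir181d on chromosome 19 overlap no other annotated gene and have Mir23a, Mir27a, Mir24-2 and Mir709 within 100 kb. Exons and introns were not looked up for these spans.

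The family was mostly miR-181a-5p in all 4 libraries. miR-181a-5p, the most studied member, held 0.295% of the miRNA reads of RC-cells (0.291 to 0.299), 1.26% in RC-MVs (1.24 to 1.29), 0.161% in GC-cells (0.158 to 0.164) and 0.555% in GC-MVs (0.540 to 0.569). Both MV libraries were above both cell libraries, and in each kind of sample RC was above GC. Among all names it ranked 36 in RC-cells and 16 in their MVs, and 41 in GC-cells and 22 in their MVs. How a read matching both of its loci was counted is not known. In RC-MVs, Mir181a-1 held 6777 of its reads and Mir181a2 7248. If reads were counted once at each locus, these levels are too high, as are those of miR-181b-5p and the sum of the guides.

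miR-181b-5p, cut from the hairpins that neighbour those of miR-181a, held 0.105% in RC-cells and 0.230% in their MVs, and 0.0518% in GC-cells and 0.111% in their MVs. Its order over the libraries was that of miR-181a-5p, with the counting intervals of GC-MVs and RC-cells overlapping. miR-181d-5p, which differs from miR-181b-5p by 1 base, was lower, with 213, 161, 399 and 181 reads in RC-cells and RC-MVs and then in GC-cells and GC-MVs. These are 0.00327% (0.00284 to 0.00374), 0.0145% (0.0124 to 0.0169), 0.00538% (0.00487 to 0.00594) and 0.0184% (0.0158 to 0.0213). Here GC was above RC in cells and, with overlapping intervals, in MVs, the opposite of miR-181a-5p and miR-181b-5p.

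miR-181c-5p, from the hairpin beside Mir181d, was the lowest guide, with 28, 35, 50 and 19 reads in the same order. Its levels were 0.000430% in RC-cells (0.000285 to 0.000621) and 0.00316% in their MVs (0.00220 to 0.00439), and 0.000674% in GC-cells (0.000501 to 0.000889) and 0.00193% in their MVs (0.00116 to 0.00302). The intervals of both MV libraries overlapped each other, as did those of both cell libraries, while MVs and cells did not overlap. The order of the guides, a above b above d above c, was the same in every library, and no intervals of neighbouring guides overlapped. The 4 guides summed to 0.403% in RC-cells and 1.51% in their MVs, and 0.219% in GC-cells and 0.686% in their MVs.

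**Figure D1:**
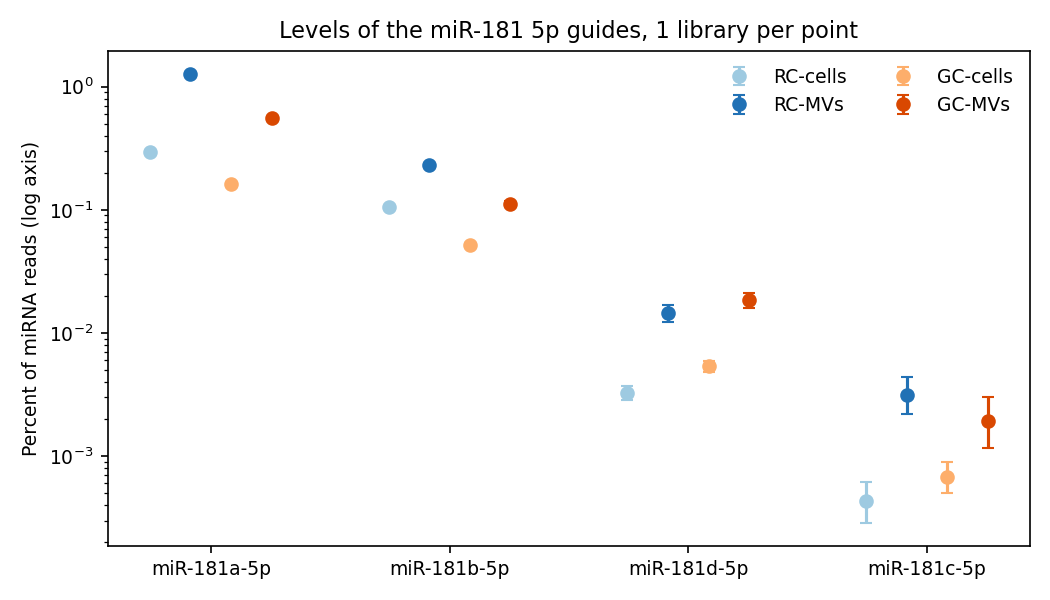
Percent of miRNA reads, on a log axis, of each miR-181 guide in cells and MVs of both zones, with 1 library per point and 95% counting intervals as bars. miR-181a-5p spans 0.161% to 1.26% and miR-181c-5p 0.000430% to 0.00316%, and every guide has both MV points above both cell points.

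All 4 guides took a larger share of MV reads than of cell reads in both zones, each by a ratio over 2. This comparison asks which miRNAs are held in the vesicles at levels unlike those of the cells that make them. miR-181a-5p was 4.29 times as high in RC-MVs as in RC-cells (4.20 to 4.39) and 3.44 times as high in GC-MVs as in GC-cells (3.33 to 3.55). miR-181d-5p gave nearly the same ratios, 4.44 in RC (3.60 to 5.48) and 3.42 in GC (2.86 to 4.09). miR-181b-5p had the smallest ratio of the guides, 2.19 in RC (2.10 to 2.30) and 2.15 in GC (2.01 to 2.30), and trimmed mean of M values (TMM) normalization, which assumes that most miRNAs do not differ, lowered the latter to 1.84. DESeq2 size factors gave 1.94 in GC, and totals without 3 very abundant miRNAs gave 1.90 in RC, so its 2-fold calls depended on the scaling. miR-181c-5p had the highest ratio in RC, 7.35 (4.34 to 12.5), and 2.87 in GC (1.60 to 4.95), on few reads.

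The summed guides were 3.75-fold higher in RC-MVs (3.68 to 3.82) and 3.13-fold higher in GC-MVs (3.04 to 3.22). A ratio of this size was not rare among miRNAs. In RC, 68 of 414 miRNAs with a read in both libraries had a higher ratio than miR-181a-5p, and in GC 77 of 417 did. The median ratio of the guides was 4.37 in RC and 3.15 in GC, against 1.06 and 1.10 over all miRNAs.

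By point values, the 4 measurable 3' products had lower MV to cell ratios than the guides of the same letter in both zones. The intervals of product and guide overlapped for miR-181a-2-3p in RC, for miR-181b-1-3p in GC and for miR-181c-3p in both zones. The guide was matched by name, since reads of miR-181a-5p cannot be assigned to a single hairpin. miR-181a-1-3p, the most read of them, held 0.0193% in RC-cells and 0.0199% in their MVs, and 0.0102% in GC-cells and 0.00753% in their MVs. Its MV to cell ratio was 1.03 in RC (0.889 to 1.19) and 0.736 in GC (0.571 to 0.935), so its share was not higher in vesicles in either zone beyond counting error. miR-181c-3p, with 44, 23, 78 and 12 reads, had ratios of 3.07 in RC (1.77 to 5.20) and 1.16 in GC (0.575 to 2.14). miR-181a-2-3p, with 43, 20, 50 and 3 reads, had ratios of 2.73 in RC (1.52 to 4.75) and 0.453 in GC (0.0903 to 1.40). miR-181b-1-3p, with 66, 11, 19 and 1 reads, had ratios of 0.980 in RC (0.466 to 1.87) and 0.397 in GC (0.00956 to 2.50), and the GC values of these last products were not separable from 1 at this depth. miR-181b-2-3p had 2 reads in RC-cells, 1 in GC-cells and 0 in both MV libraries, and miR-181d-3p had 1 read, in GC-cells.

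Of the 10 products, 8 had a read in both RC libraries, and 6 of the 8 were at least 2-fold higher in RC-MVs and 0 lower. These 6 were the 4 guides, miR-181a-2-3p and miR-181c-3p. Over all miRNAs 33.6% were called higher and 30.4% lower by that rule. In GC, 8 had a read in both libraries, of which the 4 guides were higher and 2 products of the 3' side were lower, on 3 reads or fewer in MVs. The background there was 32.1% higher and 25.2% lower. With a pseudocount of 0.5, 4 of the 8 members were higher and 0 lower, beside 139 higher and 93 lower of 417 miRNAs. Where a minimum of 10 reads was asked of each library, 4 of 6 members were higher and 0 lower, beside 83 and 61 of 275. These splits moved with the scaling too. In GC there were 113 higher and 122 lower of 417 with TMM, and 118 and 120 with DESeq2 size factors, and 3 members were then higher and 2 lower. In RC, 139 and 126 became 128 and 139 without the abundant miRNAs, with 5 members higher and 0 lower. The members share hairpins and clusters, so they are not independent of each other.

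**Figure D2:**
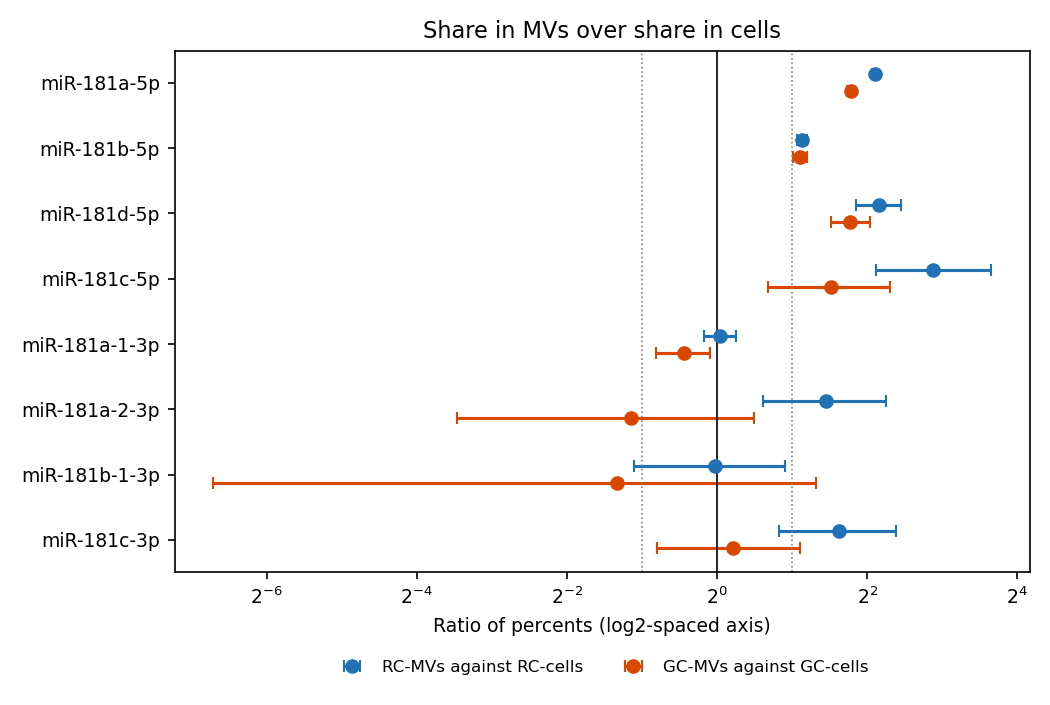
Share in MVs over share in cells for the 8 miR-181 products with a read in all 4 libraries, on a log2-spaced axis, with 95% counting intervals as bars, a solid line at 1 and dotted lines at 2-fold. The 4 guides lie beyond 2-fold in both zones, from 2.15 to 7.35, while miR-181a-1-3p lies at 1.03 in RC and 0.736 in GC.

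The zones differed by member. miR-181a-5p was 2.28 times as high in RC-MVs as in GC-MVs (2.21 to 2.35) and 1.83 times as high in RC-cells as in GC-cells (1.79 to 1.87). miR-181b-5p was higher in RC by 2.06-fold in MVs (1.92 to 2.22) and 2.02-fold in cells (1.94 to 2.10). miR-181d-5p went the other way, with an RC to GC ratio of 0.788 in MVs (0.633 to 0.980) and 0.607 in cells (0.512 to 0.719), which is 1.65-fold higher in GC-cells. miR-181c-5p had a ratio of 1.63 in MVs (0.909 to 3.02) and 0.637 in cells (0.386 to 1.03), both with intervals that include 1. The guides thus did not share a direction between the zones.

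The zone ratios depended on how libraries were scaled. With TMM normalization miR-181a-5p was 1.98-fold and miR-181b-5p 1.79-fold higher in RC-MVs, and 1.45-fold and 1.60-fold higher in RC-cells. miR-181d-5p then had an RC to GC ratio of 0.685 in MVs and 0.481 in cells. With totals without the 3 abundant miRNAs, the RC to GC ratios in MVs were 1.47 for miR-181a-5p, 1.33 for miR-181b-5p and 0.509 for miR-181d-5p. Directions held for these 3 guides under both scalings, and the 2-fold calls of miR-181a-5p and miR-181b-5p did not.

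Among the 3' products, miR-181a-1-3p was higher in RC by 2.65-fold in MVs (2.03 to 3.49) and 1.89-fold in cells (1.73 to 2.07). Without the 3 abundant miRNAs the ratio in MVs was 1.71, below 2-fold. miR-181b-1-3p was 3.95 times as high in RC-cells as in GC-cells (2.34 to 6.97), and in MVs its ratio of 9.75 (1.42 to 420) rests on 1 read in GC-MVs. miR-181a-2-3p had a ratio of 0.978 in cells (0.635 to 1.501), unlike miR-181a-1-3p, and 5.91 in MVs (1.75 to 31.0) on 3 reads in GC-MVs. miR-181c-3p had ratios of 1.70 in MVs (0.811 to 3.75) and 0.642 in cells (0.433 to 0.940), close to those of miR-181c-5p from the same hairpin.

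In MVs, 5 of 8 products with a read in both libraries were at least 2-fold higher in RC and 0 lower, beside 24.7% higher and 14.6% lower among 397 miRNAs. In cells, 3 of 9 were higher in RC and 0 lower, beside 13.7% higher and 5.7% lower among 474 miRNAs. Both splits depended on the scaling. In MVs, 98 miRNAs higher and 58 lower became 74 and 71 with TMM, 71 and 82 with DESeq2 size factors and 40 and 123 without the 3 abundant miRNAs, and the members became 3, 3 and 2 higher with 0 lower. In cells, 65 higher and 27 lower became 34 and 51, 32 and 53, and 35 and 51 in that order. The members in cells became 1 higher and 1 lower with TMM, 1 and 2 with DESeq2 size factors, and 1 and 1 without the abundant miRNAs. miR-181d-5p was called lower in RC-cells under each of these scalings, with ratios of 0.481, 0.474 and 0.487. miR-181b-2-3p, among the 3 higher in RC-cells by percent, rests on 2 reads against 1. The median RC to GC ratio of the guides was 1.85 in MVs and 1.23 in cells, against 1.11 and 1.18 over all miRNAs.

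**Figure D3:**
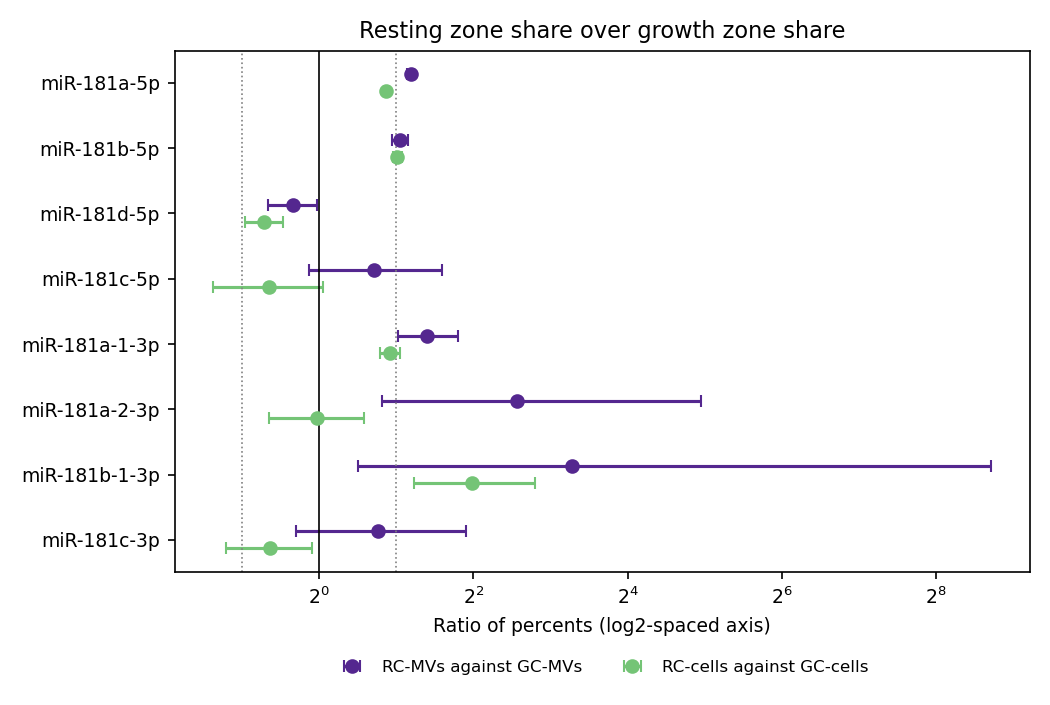
Resting zone share over growth zone share for the 8 miR-181 products with a read in all 4 libraries, in MVs and in cells, on a log2-spaced axis, with 95% counting intervals as bars, a solid line at 1 and dotted lines at 2-fold. miR-181a-5p and miR-181b-5p lie between 1.83 and 2.28, and miR-181d-5p lies at 0.788 in MVs and 0.607 in cells.

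Ratios between guides of 1 library do not depend on how libraries are scaled. RC-cells held 2.81 reads of miR-181a-5p for each read of miR-181b-5p, RC-MVs 5.50, GC-cells 3.11 and GC-MVs 4.98. The ratio was higher in MVs than in cells by 1.96-fold in RC (1.86 to 2.06) and by 1.60-fold in GC (1.49 to 1.73). The vesicle libraries were thus richer in miR-181a-5p relative to miR-181b-5p in both zones. The same chromosomal clusters encode both, and the cause of the shift was not tested.

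The ratio of miR-181a-5p to miR-181d-5p behaved otherwise. It was 90.2 in RC-cells (78.8 to 104) and 87.1 in their MVs (74.6 to 102), and 29.95 in GC-cells (27.1 to 33.2) and 30.1 in their MVs (26.0 to 35.1). It differed between zones by 3.01-fold in cells (2.54 to 3.58) and 2.89-fold in MVs (2.32 to 3.61). Between MVs and cells of a zone it changed by a factor of 0.966 in RC (0.782 to 1.19) and 1.01 in GC (0.839 to 1.21), intervals that include 1. The intervals of RC and GC did not overlap in cells or in MVs. With a single locus of miR-181a-5p counted in place of both, the ratios were 45.7 and 45.0 in RC and 15.3 and 15.6 in GC.

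miR-181b-5p to miR-181d-5p, the pair that differs by C12U, differed along both lines, with 32.0 reads in RC-cells and 15.8 in their MVs, and 9.63 in GC-cells and 6.04 in their MVs. It was lower in MVs than in cells of the same zone, and lower in GC than in RC. With a single locus of miR-181b-5p counted, these ratios were 16.2, 8.27, 4.89 and 3.15. Both guides of the chromosome 19 pair stood at 7.61 reads of miR-181d-5p per read of miR-181c-5p in RC-cells and 4.60 in their MVs, and 7.98 in GC-cells and 9.53 in their MVs.

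By make-up, miR-181a-5p was 73.1% of the guide reads in RC-cells and 83.6% in their MVs, and 73.6% in GC-cells and 80.8% in their MVs. miR-181b-5p was 26.0%, 15.2%, 23.65% and 16.2% in the same order, smaller in MVs than in cells of both zones. miR-181d-5p made up 0.811% and 0.960% in RC-cells and RC-MVs, against 2.46% and 2.68% in GC-cells and GC-MVs. With a single locus of each guide counted, these shares were 1.59%, 1.83%, 4.69% and 5.03%. miR-181c-5p ranged from 0.107% in RC-cells to 0.308% in GC-cells, or from 0.209% to 0.587% with a single locus of each guide counted. Reads of miR-181a-5p per read of miR-181c-5p were 2.87-fold higher in RC-cells than in GC-cells (1.77 to 4.74). In MVs the factor was 1.40, with an interval that includes 1 (0.754 to 2.51).

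**Figure D4:**
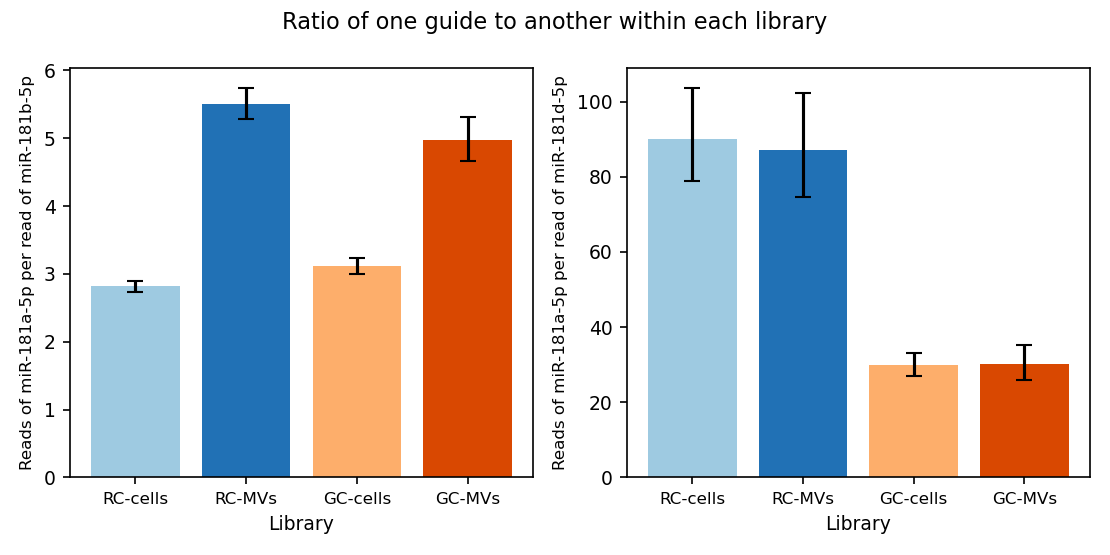
Reads of miR-181a-5p per read of miR-181b-5p (left) and per read of miR-181d-5p (right) in each library, with 95% counting intervals as bars. The left ratio is higher in MVs (5.50 and 4.98) than in cells (2.81 and 3.11), and the right ratio is higher in RC (90.2 and 87.1) than in GC (29.95 and 30.1).

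The guides miR-181a-5p and miR-181b-5p are each encoded at 2 loci, and the deposited table lists both. Mir181a-1 held 49.4% of the miR-181a-5p reads in RC-cells and 48.3% in their MVs, and 48.9% in GC-cells and 48.1% in their MVs, and Mir181a2 the rest. Mir181b1 held 50.6%, 52.2%, 50.8% and 52.1% of miR-181b-5p. Both miR-181a-5p loci give the same mature sequence, so their near-even split gives no information on which hairpin was the source. The miR-181b-5p loci share a mature name, but no sequence of Mir181b2 was at hand, so their split was not read further.

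The 3' products, which differ in sequence, were far from even. There were 29.3 reads of miR-181a-1-3p per read of miR-181a-2-3p in RC-cells (21.6 to 40.7) and 11.05 in their MVs (6.98 to 18.4), and 15.2 in GC-cells (11.4 to 20.6) and 24.7 in their MVs (8.12 to 122). The chromosome 13 product led in every library, by 11.05-fold or more. Between RC-cells and GC-cells the ratio differed by 1.93-fold (1.25 to 3.01), and between RC-MVs and RC-cells by a factor of 0.377 (0.212 to 0.690).

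Arm usage set the Mir181c hairpin apart from the others. In the miR-181a hairpins the 3' arm was 6.36% of the arm reads in RC-cells (6.03 to 6.70) and 1.69% in their MVs (1.48 to 1.91), and 6.34% in GC-cells (5.92 to 6.78) and 1.39% in their MVs (1.10 to 1.74). In the miR-181b hairpins it was 0.987%, 0.430%, 0.518% and 0.0913% in that order, the last on 1 read of 1095. Point values of both pairs were smaller in vesicles than in cells, but for miR-181b the intervals of MVs and cells overlapped in both zones, with 0.215 to 0.768 against 0.767 to 1.25 in RC and 0.00231 to 0.508 against 0.317 to 0.799 in GC. With a single locus of each guide counted, the miR-181a shares were 11.8% and 3.22% in RC and 11.7% and 2.65% in GC, and the miR-181b shares were 1.93% and 0.820% in RC and 1.01% and 0.175% in GC.

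In Mir181c the 3' arm was 61.1% in RC-cells (48.9 to 72.4) and 39.7% in their MVs (27.05 to 53.4), and 60.9% in GC-cells (51.9 to 69.4) and 38.7% in their MVs (21.85 to 57.8). Neither arm dominated. By point values the 5' arm led in the vesicle libraries and the 3' arm in cells, but only the interval of GC-cells excluded an even split. The intervals of MVs and cells overlapped in both zones. In Mir181d, by contrast, 0 of 213 arm reads in RC-cells were from the 3' arm, and 0 of 161 in RC-MVs, 1 of 400 in GC-cells, which is 0.25%, and 0 of 181 in GC-MVs. The upper limits of the exact intervals of the 3 zeros are 1.72%, 2.27% and 2.02%, and 3 reads would be 1.41%, 1.86% and 1.66%. The neighbouring hairpins of chromosome 19 thus differed in arm usage in every library.

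Over all hairpins with both arms in the table and at least 10 arm reads, the median share of the lesser arm was 3.61% in RC-cells and 3.23% in their MVs, and 2.56% in GC-cells and 2.5% in their MVs. A lesser arm of at least 30%, as in Mir181c, was found in 14.1%, 10.98%, 12.6% and 12.4% of 185, 164, 191 and 161 hairpins.

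Guide reads per 3' read were higher in vesicles than in cells for all 3 sets that could be measured. For miR-181a the change was 3.95-fold in RC (3.43 to 4.56) and 4.79-fold in GC (3.78 to 6.15). For Mir181c it was 2.39-fold in RC (1.11 to 5.16) and 2.47-fold in GC (1.03 to 6.07). For miR-181b it was 2.31-fold in RC (1.21 to 4.85), and in GC it was 5.70 with an interval that includes 1 (0.909 to 236). Between the zones, in cells, the same quantity changed by 0.997 for miR-181a (0.910 to 1.09) and by 0.993 for Mir181c. For miR-181b it was 0.523 (0.300 to 0.873), fewer guide reads per 3' read in RC-cells than in GC-cells.

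**Figure D5:**
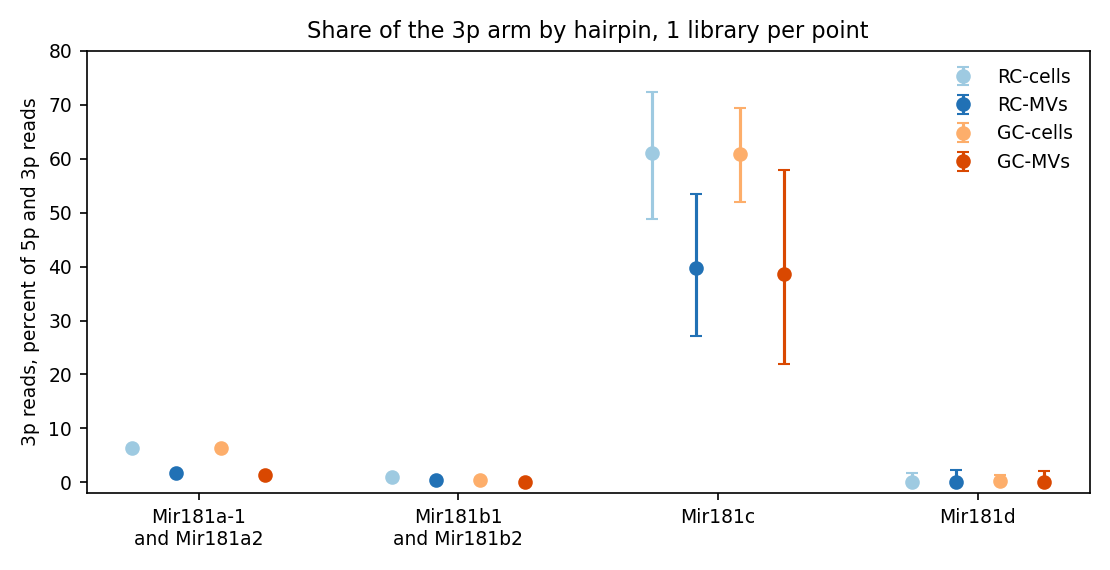
Percent of the 3' arm among the arm reads of the miR-181 hairpins in each library, with 95% counting intervals as bars and hairpins with the same guide pooled. Mir181c lies at 61.1% and 60.9% in cells and at 39.7% and 38.7% in MVs, and all other sets lie at 6.36% or lower.

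Other guides made by paralogous clusters were set beside miR-181. The 9 let-7 guides, known for promoting differentiation, summed to 11.04% in RC-cells and 5.88% in their MVs, and 9.89% in GC-cells and 4.71% in their MVs, MV to cell ratios of 0.532 and 0.476. The 5 miR-30 guides had ratios of 0.396 in RC and 0.438 in GC, and the 5 guides of miR-23, miR-27 and miR-24, which share clusters but not seeds, had 0.338 and 0.589. All 3 sums were lower in vesicles, unlike the sum of miR-181, but single members varied. In RC and GC, median member ratios were 0.350 and 0.406 for let-7 and 0.398 and 0.474 for miR-30. For the last set they were 0.413 and 0.772. The highest member ratios were 2.56 and 2.13, 0.506 and 1.84, and 1.28 and 2.09 in that order.

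Products of Mir23a, Mir27a and Mir24-2, chromosomal neighbours of Mir181c and Mir181d, varied among themselves. miR-24-2-5p, the lesser arm product of Mir24-2, had an MV to cell ratio of 4.44 in RC and 2.45 in GC. miR-23a-3p had 1.28 and 2.09, and miR-27a-3p, from the same cluster, had 0.131 and 0.277. A position near Mir181c and Mir181d thus went with ratios above and below 1. Mir3570, which overlaps Mir181a-1 on the opposite strand, had 0 reads in all 4 libraries.

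The miRNAs whose levels over the 4 libraries were most like the summed miR-181 guides were found among 128 with at least 100 reads in each library, by the Euclidean distance of log2 percents centred over the libraries. The nearest was miR-382-5p, an imprinted-cluster miRNA, at a distance of 0.10, with 0.108%, 0.382%, 0.0546% and 0.168% in RC-cells and RC-MVs and then in GC-cells and GC-MVs. Next were miR-24-2-5p at 0.37, miR-28-3p at 0.42, miR-127-3p at 0.45 and miR-541-5p at 0.46, while the median over all 128 was 2.002. With 4 libraries such a profile has few independent points.

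Markers of tissue were read in the same libraries, with values given in the order RC-cells and RC-MVs and then GC-cells and GC-MVs. The cartilage list summed to 0.526%, 1.00%, 0.636% and 0.841%, and its members did not move together. miR-140-3p held 0.383%, 0.951%, 0.506% and 0.794%, while miR-140-5p, from the same hairpin, held 0.0710%, 0.00848%, 0.0808% and 0.0216% and miR-455-5p 0.0627%, 0.0236%, 0.0439% and 0.0171%, both lower in MVs. miR-675-5p was at 0 throughout.

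The sums of the liver, blood and skeletal muscle lists were higher in MVs of both zones. miR-122-5p, a miRNA of liver and serum, held 0.000491% and 0.401% in RC and 0.000459% and 1.14% in GC. The blood list, of which 6 of 7 members were in the table, summed to 0.00124%, 0.0885%, 0.00121% and 0.190%, and the skeletal muscle list to 0.000368%, 0.00171%, 0.000715% and 0.00733%. The neural list summed to 0.0664%, 0.208%, 0.0619% and 0.210%, with miR-124-3p at 0. Of its members only miR-129-5p was higher in MVs, at 0.0197%, 0.191%, 0.01999% and 0.195%, while miR-128-3p held 0.0455%, 0.0158%, 0.0403% and 0.0142% and miR-9a-5p was also lower in MVs. The endothelial list summed to 0.0266%, 0.0158%, 0.0223% and 0.0640%, lower in MVs in RC and higher in MVs in GC. The part of RNA from other tissues or from the bovine serum in the MV levels of miR-181 was not tested.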

How the data were processed

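The deposited values are raw counts of reads for each annotated miRNA locus, which the authors made with Bowtie2 alignment to Rnor_6.0 and miARma-Seq. Tool versions, and how a read matching more than 1 locus was counted, are not given in the sources used here. Counts of loci with the same mature name were added and divided by the library total. A difference was called at 2-fold with at least 1 read in both libraries. Intervals are exact, at the 95% level, and each group has 1 library, so no test across samples was run. RefSeq on GRCr8 gave the sequences with their positions and the neighbouring genes, which were matched to the counts by name, since the counts rest on another build.

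The named miRNAs were all products numbered rno-miR-181, the 5 miRNAs nearest to the summed guides, 3 comparison sets of guides and the neighbours of the hairpins. Members and lists were chosen with earlier results of these data known. The alternatives were TMM (edgeR 4.0.16), DESeq2 1.42.0 size factors, totals without the abundant miR-143-3p, miR-22-3p and miR-21-5p, the single locus with the most reads, thinning to the smallest total in 100 draws, a pseudocount of 0.5, a minimum of 10 reads, a 4-fold threshold and an interval wholly beyond 2-fold. The scripts were tested on simulated data. They ran in R 4.3.3 and Python 3.11.15 (scipy 1.17.1, pandas 2.3.3, matplotlib 3.10.9, numpy 2.4.6).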

Additional observations from a re-analysis of the deposited data

Results flagged for a closer look

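For 4 products the ratio of 1 pair of libraries lay above 1 and that of the matching pair below 1. None of these differences was tested, since each group has 1 library.

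From cells to MVs, miR-181a-1-3p had a ratio of 1.03 in RC and 0.736 in GC. With TMM and without the 3 abundant miRNAs the RC ratio was 0.967 and 0.890, so both zones were then below 1. miR-181a-2-3p had 2.73 in RC and 0.453 in GC. The last value rests on 3 reads in GC-MVs. From GC to RC, miR-181a-2-3p had a ratio of 5.91 in MVs and 0.978 in cells, on the same 3 reads. With libraries thinned to the smallest total, the ratio in cells was 1.12. Both products of Mir181c went the same way by point values. miR-181c-3p had an RC to GC ratio of 1.70 in MVs and 0.642 in cells, and miR-181c-5p had 1.63 in MVs and 0.637 in cells. The intervals of both products in MVs, and that of miR-181c-5p in cells, include 1. Without the 3 abundant miRNAs the ratios in MVs were 1.10 for miR-181c-3p and 1.05 for miR-181c-5p.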

How the results depend on the processing

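The direction of every summed guide ratio held under every alternative, and its size moved with the scaling, the cause of which was not tested. With TMM, DESeq2 size factors and totals without the 3 abundant miRNAs, in that order, the MV to cell ratio was 3.52, 3.65 and 3.24 in RC and 2.68, 2.83 and 3.36 in GC. The RC to GC ratio was 1.92, 1.85 and 1.42 in MVs, all under 2-fold, and 1.46, 1.44 and 1.48 in cells. These scalings moved the median log2 ratio of all miRNAs by up to -0.63, in the comparison of MVs between zones without the abundant miRNAs.

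The count of products at least 2-fold different in RC-MVs against RC-cells was 3 of 8 at 4-fold, beside 143 of 414 miRNAs. In GC-MVs set against GC-cells the count was 0 of 8 at 4-fold, beside 101 of 417 miRNAs. It was 3 with the whole interval beyond 2-fold, beside 134 of 417. With a pseudocount of 0.5 or at least 10 reads it was 4 higher and 0 lower. In RC-MVs against GC-MVs it was 3 with TMM, 3 with DESeq2 size factors and 2 without the abundant miRNAs. It was 3 of 6 with at least 10 reads, beside 97 of 271 miRNAs. At 4-fold it was 2 of 8, beside 32 of 397. With the whole interval beyond 2-fold it was 2 of 8, beside 61 of 397. In RC-cells against GC-cells it was 0 of 9 at 4-fold, beside 20 of 474 miRNAs. With the whole interval beyond 2-fold it was 1 of 9, beside 24 of 474. miR-181b-5p lost its 2-fold call in RC-MVs against RC-cells without the abundant miRNAs (1.90) and in GC-MVs against GC-cells with TMM (1.84) and DESeq2 size factors (1.94).

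Taking only the locus with the most reads leaves out about as many reads of miR-181a-5p and miR-181b-5p as it keeps. The 3' share of the miR-181a hairpins was then 11.8%, 3.22%, 11.7% and 2.65% in RC-cells and RC-MVs and then in GC-cells and GC-MVs, and that of the miR-181b hairpins 1.93%, 0.820% and 1.01% in the first 3. The same choice for the make-up of the guides and for their ratios was added after seeing the data. It gave miR-181a-5p 72.5%, 82.6%, 71.8% and 78.6%, miR-181c-5p 0.209%, 0.399%, 0.587% and 0.528%, miR-181d-5p 1.59%, 1.83%, 4.69% and 5.03%, and miR-181b-5p 22.9% in GC-cells. Reads of miR-181a-5p per read of miR-181d-5p were then 45.7, 45.0, 15.3 and 15.6.

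No paired analysis was made. The groups compared have 1 library each and so share fewer than 2 replicate numbers, and a fit over both zones with the zone as a block was not made. Depth limits the 3' products other than miR-181a-1-3p, and miR-181c-5p, to under 100 reads in each library. miR-181a-1-3p was also under 100 reads in GC-MVs, with 74. If reads of a guide encoded at both loci were counted once at each, levels of miR-181a-5p and miR-181b-5p would be those of the single locus, and no source used here says which was done.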
